A study of Rattus norvegicus with 12 samples.

Results

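The miR-340 hairpin gives 2 mature microRNAs, rno-miR-340-5p from its 5′ arm and rno-miR-340-3p from its 3′ arm, and both were on the rat microRNA array. They are 2 of the 677 rat miRNAs measured and were chosen by name. The hairpin was selected on the comparison of dam diets in these same arrays, where miR-340-3p had been picked up in more of the high fat rats than of the control rats, so the diet values of both arms are given below as a description, without a test. Soleus, a slow postural muscle of the hind limb, was taken from 12 male Sprague-Dawley rats aged 1 year, and each rat had 1 array. The dams of 6 rats had eaten a control diet and those of 6 rats a high fat diet, rich in saturated fat and sucrose, through pregnancy and lactation. All offspring were weaned onto standard chow, so that no rat of either group ate the high fat diet itself as an adult. The 12 arrays came from 2 slides, each carrying 3 control and 3 high fat rats, and the rats are named here by their labels, such as C73 or H3. Litters are not named in the labels, so the spread between rats of a group may not be that between litters.

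MicroRNAs are cut as short duplexes from hairpin precursors, and 1 strand of the duplex is loaded into an Argonaute protein, where it pairs with target mRNAs mainly through its seed, bases 2 to 8, and lowers their translation and stability. The strand left over, often called the passenger strand, is usually degraded, but in some hairpins both arms persist. miR-340-5p has been studied mostly in tumour cells, where it acts against migration and growth through targets such as the MET receptor and, in melanocytic cells, the transcription factor MITF. Rnf130, the gene in whose span the hairpin lies, encodes a RING finger ubiquitin ligase. An array of this kind measures mature miRNAs, so neither targets nor the host transcript were measured here.

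The sequences are shown because the arms differ in seed and in base composition, and because the array reports each arm on its own. They were taken from RefSeq on the GRCr8 build under the names that the array uses, and capitals in the mature arms mark the seed. In the hairpin, capitals mark the mature arms. miR-340-5p lies at chr10:34894668-34894689, miR-340-3p at chr10:34894710-34894732 and the hairpin at chr10:34894650-34894747, all on the plus strand and inside the span of Rnf130. Whether that place is an exon or an intron is not given in the tables used here.
rno-miR-340-5p: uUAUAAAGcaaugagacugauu
rno-miR-340-3p: uCCGUCUCaguuacuuuauagcc
Mir340-1 hairpin: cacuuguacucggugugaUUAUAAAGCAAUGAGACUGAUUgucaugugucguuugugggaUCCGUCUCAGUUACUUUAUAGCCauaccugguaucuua

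Neither seed was shared with any other of the 693 rat mature miRNAs in the table, so the arms form no seed family with each other or with another rat miRNA. The longest run that miR-340-5p shared with another mature miRNA was 8 bases, in rno-miR-21-5p and rno-miR-873-3p. For miR-340-3p it was also 8 bases, in rno-miR-142-3p, rno-miR-582-5p and rno-miR-883-5p. miR-340-5p was poor in G and C, at 27.3% of its 22 bases, and only 5 of the 693 (0.722%) had a lower share. miR-340-3p had 43.5% over its 23 bases, and 225 of the 693 (32.5%) had a lower share. In the fold of lowest predicted energy, -32.3 kcal/mol, 16 base pairs joined the arms, with 20 bases between them and a 3′ overhang of 2 bases at each end of the duplex, the shape that Drosha and Dicer leave. Of the first 4 bases at the 5′ end, all 4 of miR-340-5p and 1 of miR-340-3p were A or U.

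**Figure D1:**
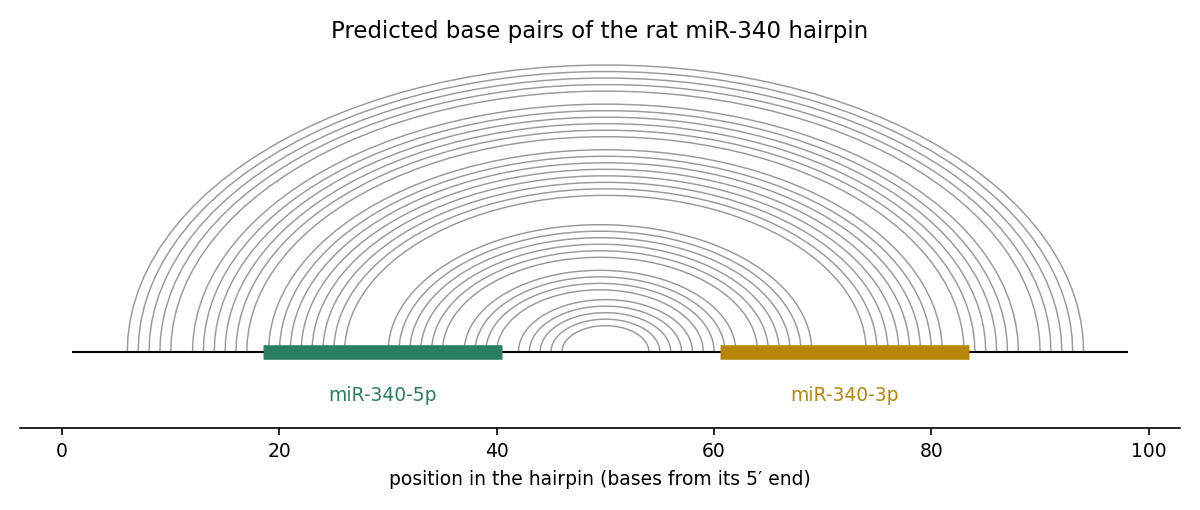
Map of the predicted base pairs of the rat miR-340 hairpin, with position in bases from its 5′ end on the horizontal axis. Grey arcs join paired bases, and thick bars mark miR-340-5p (positions 19 to 40) and miR-340-3p (positions 61 to 83), which face each other across the stem.

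Each array lists for each miRNA a total signal, which the scanner software sums over its spots after background subtraction, an error of that signal, and a flag for detection. A miRNA without detection is listed at 0.1. Over all miRNAs and arrays there were 2363 detected values, and none was under 3.0 times its error. Of the 677 miRNAs, 162 were detected on all 12 arrays, 432 on none and 83 on some, called intermittent here, and both arms of miR-340 belonged to these 83. The brightness of an array was taken as the 75th percentile of the 162, between 864 and 1911 signal units. Between 177 and 220 miRNAs were detected per array. The muscle markers miR-1, miR-133a, miR-133b, miR-206 and miR-499 were detected in all rats and miR-208b-3p in all but H3. Rat H3 (high fat dam) differed from the rest in its markers. Its scaled miR-499 signal was 366 against 4553 to 9137 in the others, and its miR-206 signal 9354 against 30841 to 60699. Its miR-1 signal was the highest, at 136123 against 51591 to 106415, while miR-133a and miR-133b lay within the range of the others. The epithelial miRNAs miR-200a and miR-200b were detected in H3 alone. Differences that rest on H3 are therefore also given without it.

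miR-340-5p was detected in 4 of 12 rats, H3, C25 and A37 of high fat-fed dams and A89 of a control dam. Its listed signal was 21.9 in H3, 25.2 in C25, 24.3 in A37 and 23.8 in A89, with errors of 4.02, 4.35, 4.24 and 4.35. The other 8 rats, 5 from the control and 3 from the high fat group, were listed at 0.1. The detected values spanned 1.15-fold and lay within each other's errors, so that among these 4 rats no order can be read. The signal fell into 2 sets with nothing between 0.1 and 21.9.

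miR-340-3p was detected in 6 rats, the same 4 and also C51 and H1 of high fat-fed dams. The listed signal was 8.60 in C51, 10.5 in H3, 8.82 in H1, 9.37 in C25, 8.64 in A37 and 11.8 in A89, with errors from 2.66 to 3.07. The remaining 6 rats, 5 of control dams and H20 of a high fat-fed dam, were listed at 0.1. The highest value was that of the only control rat with detection, A89. The detected values spanned 1.38-fold, and the largest gap, between 8.60 and 11.8, was within the combined error of that pair.

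**Figure D2:**
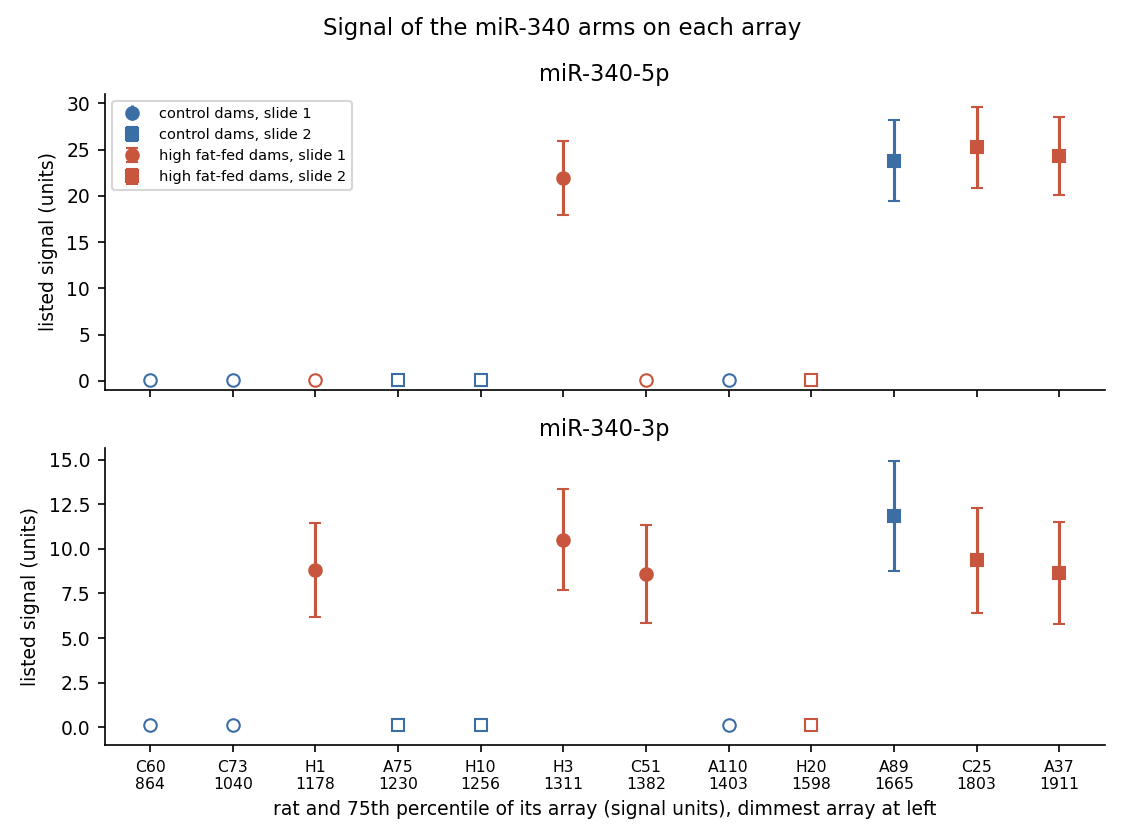
Listed signal of miR-340-5p (top) and miR-340-3p (bottom) on each of the 12 arrays, in signal units, with arrays ordered from dimmest to brightest by the 75th percentile printed under the rat's label. Filled points are detected values with the software's error as bars, open points are undetected values listed at 0.1, and the 3 brightest arrays, A89, C25 and A37, have both arms.

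The detection flags of the 2 arms were set side by side. Both arms were detected in 4 rats, neither in 6, miR-340-3p alone in 2 and miR-340-5p alone in 0, so the flags agreed on 10 of 12 arrays. Some miRNAs of other hairpins matched miR-340-5p as closely or more closely, among them miR-327 on 11 arrays and miR-190 on 10. Such agreement is therefore not particular to the partner arm. The listed 5p signal divided by the listed 3p signal was 2.08 ± 0.677 in H3, 2.01 ± 0.638 in A89, 2.69 ± 0.967 in C25 and 2.81 ± 1.05 in A37, where the error is carried over from the errors of both signals. These 4 ratios differed by less than their combined errors. The arms have different probes, so a ratio above 1 does not give the order of their abundance, and only its change from array to array can be read.

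Of 259 hairpins with both arms on the array, 113 had at least 1 arm on all 12 arrays, 19 of them both arms, and 101 had neither arm on any array. miR-340 was 1 of 6 hairpins in which both arms were intermittent, with miR-136, miR-139, miR-190, miR-483 and miR-582. Among these 6 the flags agreed on 10 of 12 arrays for miR-340, 9 for miR-190, 8 for miR-582, 5 for miR-483, 4 for miR-139 and 3 for miR-136. Arms with few detections share many undetected arrays for that reason alone, so the counts are a description. The plain names on the array mark 1 arm and names with an asterisk the other, as for miR-190 and miR-190*.

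The arms entered detection at different heights. For each intermittent miRNA the lowest listed signal with detection was found, with a median of 9.56 and quartiles of 8.57 and 11.5. For miR-340-3p it was 8.60, with 21 of the 83 lower, and its lowest ratio of signal to error was 3.01, in A37, close to the smallest ratio in the files. For miR-340-5p it was 21.9, with 76 of the 83 lower, at 5.44 times its error, with 74 of the 83 lower. So miR-340-3p appeared at the edge of detection, while miR-340-5p went from no listed signal to well above that edge.

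Brightness and detection were set side by side. The 3 brightest arrays were A37, C25 and A89, and both arms were detected on each. Of the 83 intermittent miRNAs, 26 (31.3%) were detected on all 3 of them. Of the 6 brightest arrays 3 had miR-340-5p and 4 had miR-340-3p, and of the 6 dimmest 1 and 2 had them. The same split was not counted for the other intermittent miRNAs, so nothing particular to the arms is read from it. H20, the fourth in brightness with a percentile of 1598, had neither arm, whereas H1, the third from the dimmest with 1178, had miR-340-3p. For the other 81 intermittent miRNAs, the number detected per array ran from 15 in H10 to 56 in A89, with C25 at 48 and H3 at 44 next to the top and A37 at 26. This number was not clearly related to brightness over the 12 arrays (Pearson's r = 0.35, permutation p = 0.262, adjusted 0.372, and Spearman's rho = 0.28, permutation p = 0.376, adjusted 0.919, adjusted over 3 relations). Within the slides r was 0.45 on the first and 0.53 on the second (exact permutation p = 0.372 and 0.265), with rho at 0.086 and 0.26 (exact permutation p = 0.919 and 0.658). Without the 2 arrays farthest from the median brightness r was 0.40 (permutation p = 0.254). No correlation of miR-340-5p itself with brightness is given, because its values form 2 separate sets.

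To bring arrays to 1 scale, each was divided by its 75th percentile and multiplied by the geometric mean of the 12 percentiles. On this scale miR-340-5p was 22.6 in H3, 19.4 in A89, 19.0 in C25 and 17.2 in A37. miR-340-3p was 10.9 in H3, 10.1 in H1, 9.63 in A89, 8.43 in C51, 7.04 in C25 and 6.12 in A37, and the brightest 2 arrays, C25 and A37, thus gave the lowest values. For miR-340-3p, the lowest listed signal with detection, 8.60 in C51, at 3.15 times its error, was taken as a limit for the undetected values. It corresponds on this scale to 7.29 on the array of H20, 8.30 on that of A110, 9.27 on that of H10, 9.47 on that of A75, 11.2 on that of C73 and 13.5 on that of C60. All 6 rats without miR-340-3p therefore had a limit above the 6.12 that counted as detected in A37. This follows from brightness, since A37 had the brightest array and a listed signal of 8.64, close to the 8.60 used as the limit. For 2 of the 6, C73 and C60, both of control dams, the limit was above every detected value. The limits of H20 and A110 were below the detected values of C51, A89, H1 and H3. No such limit is given for miR-340-5p, because its lowest listed signal was well above 3.0 times its error. By these limits C73 and C60 may have had as much miR-340-3p as any rat with detection. H20, A110, H10 and A75 may have had as much as some of them only.

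**Figure D3:**
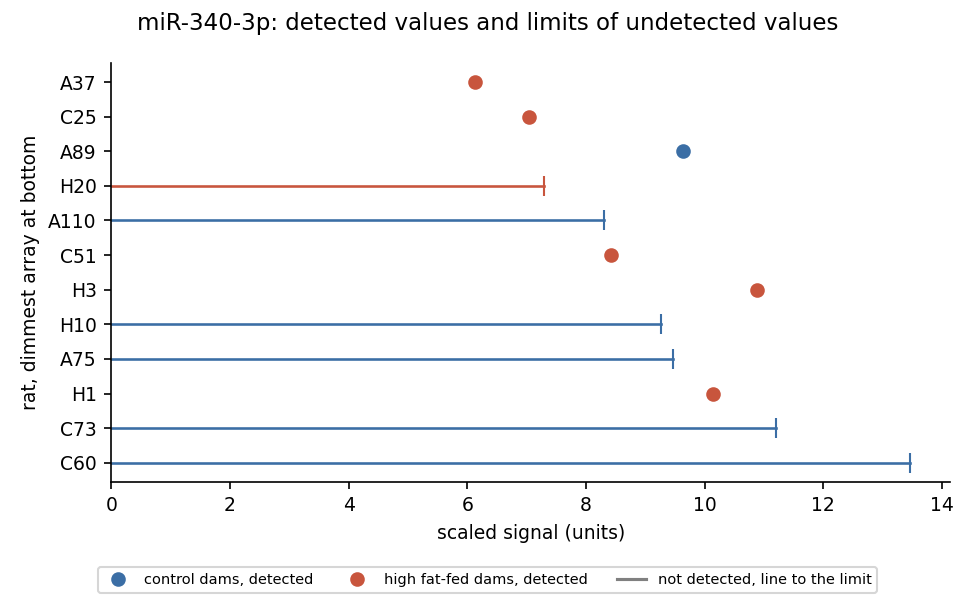
Scaled signal of miR-340-3p, in signal units, in each rat, ordered from the dimmest array at the bottom to the brightest at the top. Points are detected values and lines run from 0 to the limit set by the lowest listed signal with detection. Each of the 6 lines reaches past 6.12, the lowest point, which is that of A37 on the brightest array.

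Between the dam diets, miR-340-3p was detected in 1 of 6 offspring of control dams and in 5 of 6 offspring of high fat-fed dams, 4 rats apart. Of the 83 intermittent miRNAs, 1 (1.20%) was apart by 4 or more towards the high fat group, and that 1 was miR-340-3p itself, which is why the hairpin was picked. By slide, the counts were 0 of 3 control and 3 of 3 high fat rats on the first, and 1 of 3 and 2 of 3 on the second. On the first slide the control rats C73 and C60 had limits of 11.2 and 13.5, above the detected values of 8.43 to 10.9 in the 3 high fat rats. Their levels can therefore not be set against those values. The limit of A110, the third control rat, was 8.30, below all 3, and its array was brighter than those of the 3 high fat rats. miR-340-5p was detected in 1 of 6 control and 3 of 6 high fat rats, 2 apart, and 13 of the 83 (15.7%) were apart by 2 or more in that direction. Its counts by slide were 0 of 3 and 1 of 3, then 1 of 3 and 2 of 3. Over all 83, the difference lay between -2 and 4 rats, and for 64 of them between -1 and 1.

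**Figure D4:**
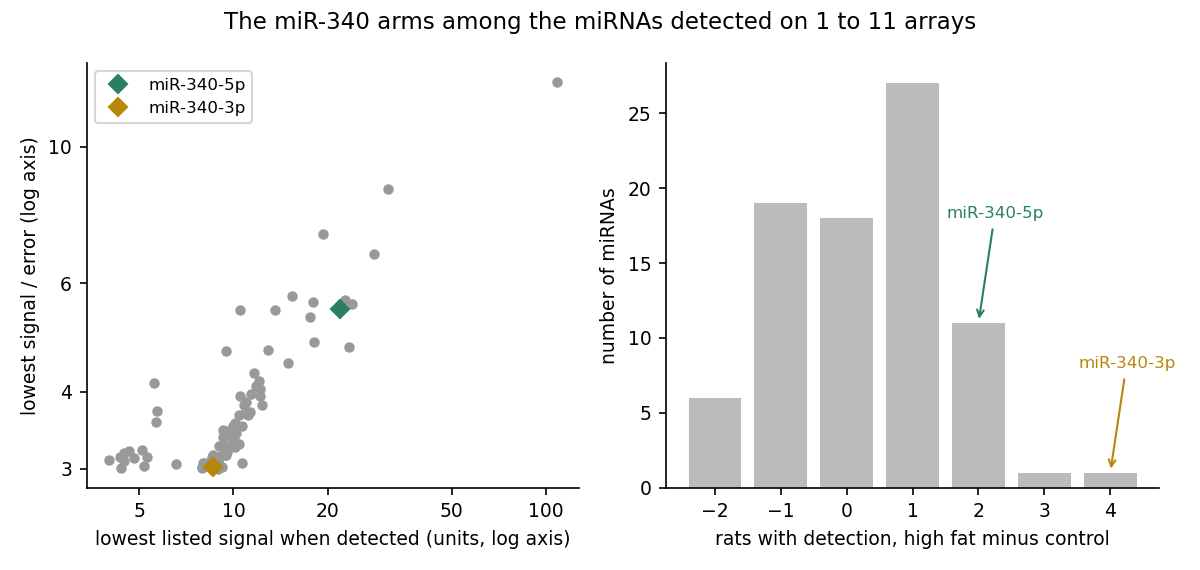
The 83 miRNAs detected on 1 to 11 arrays. On the left each point is a miRNA, with its lowest listed signal when detected (signal units, log axis) and its lowest ratio of signal to error (log axis), and miR-340-3p sits at 8.60 and 3.01 and miR-340-5p at 21.9 and 5.44. On the right bars count miRNAs by rats with detection, high fat minus control, and arrows mark miR-340-5p at 2 and miR-340-3p at 4.

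For a fitted difference, scaled signals under 5.17, the median over arrays of the lowest detected signal, were set to 5.17 and log2 was taken. The scaled miR-340-3p signal then averaged 5.91 ± 1.82 (SD, n = 6) for the control group and 7.96 ± 2.26 (SD, n = 6) for the high fat group, and the log2 difference was 0.42 (standard error 0.22). Within the second slide it was -0.069, where 1 of 3 control and 2 of 3 high fat rats were detected and the others were at the floor. Within the first slide it was 0.92, a size set by the floor, since all 3 control values were at it. The miR-340-5p signal was 7.53 ± 5.80 (SD, n = 6) and 12.4 ± 8.10 (SD, n = 6), a log2 difference of 0.64 (standard error 0.48). Within the second slide it was 0.57, and within the first 0.71, where H3 alone was above the floor. The groups overlapped for both arms, since each held rats at the floor and A89 lay among the detected high fat rats. Without H3 the log2 differences were 0.38 (standard error 0.22) for miR-340-3p and 0.44 (standard error 0.49) for miR-340-5p. The difference in the log2 ratio of the arms was 0.22 (standard error 0.48), again with undetected values at the floor. It had no settled sign, at 0.062 without H3, 0.029 without C25, -0.026 without A37 and -0.45 with the floor 4 times lower. Of the 193 miRNAs detected on at least 6 arrays, which include miR-340-3p with exactly 6 but not miR-340-5p with 4, limma called 0 (0%) at an adjusted p under 0.05. At an unadjusted p under 0.05 limma gave 2 of the 193, both lower in the high fat group. That direction depended on the scaling, since there were 3 higher and 0 lower without scaling or with the percentile over all miRNAs, and 5 higher and 0 lower after quantile normalization. With the reported scaling, the methods' unpaired test gave 0 adjusted and 2 unadjusted. The median log2 difference over the 193 was -0.17, and 0.14 without scaling. miR-340-3p passed the detection filter through the high fat group, and nothing is read from its place among the 193.

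These differences depended on where the floor was put, because 8 of 12 values of miR-340-5p and 6 of 12 of miR-340-3p are undetected. With the floor 4 times lower the miR-340-3p difference was 1.76 (standard error 0.62) and that of miR-340-5p 1.31 (standard error 1.00). With the floor 4 times higher they were 0 and 0.022. That floor lies above every detected miR-340-3p value and above every miR-340-5p value but that of H3. The 0 was thus fixed in advance and the 0.022 is H3 alone, so nothing is read from either.

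**Figure D5:**
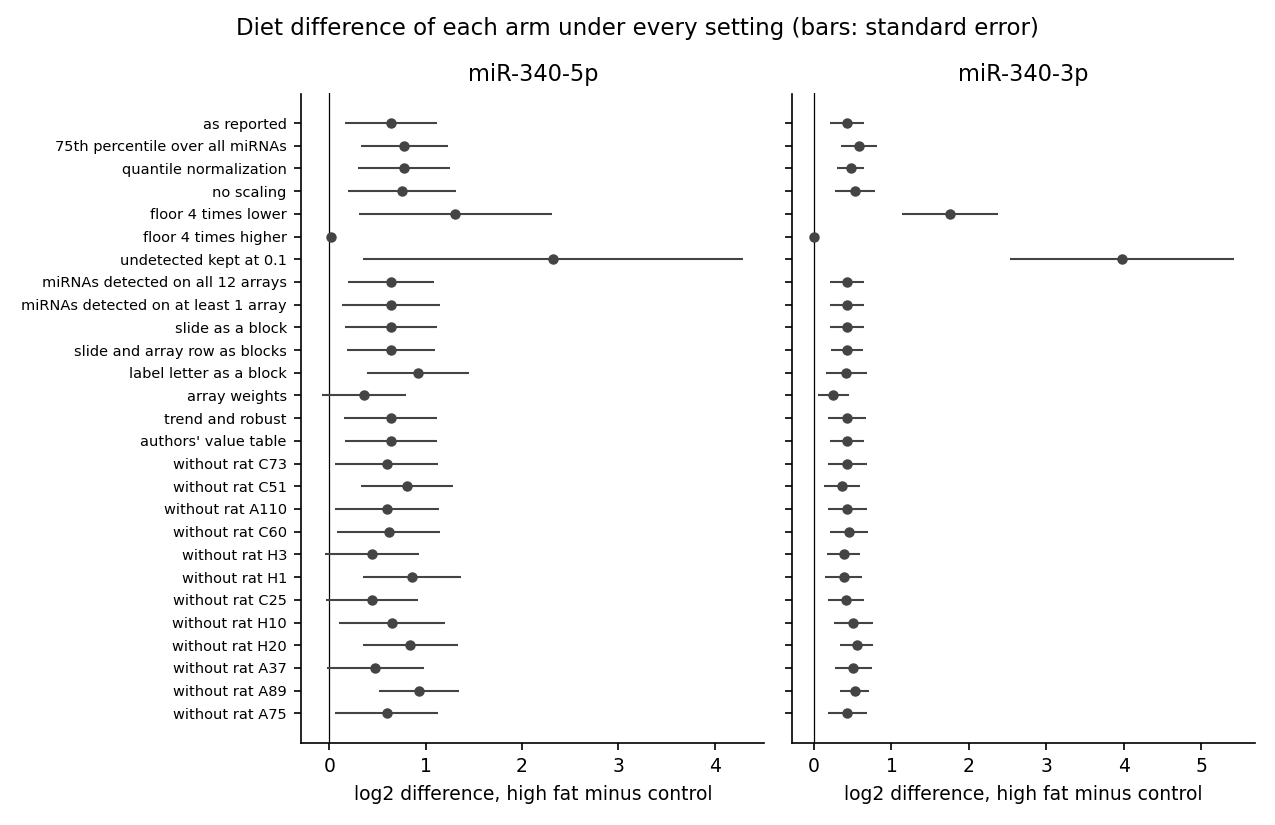
Log2 difference, high fat minus control, of miR-340-5p (left) and miR-340-3p (right) under each setting of the analysis, with standard errors as bars and a line at 0. Points stay near 0.64 and 0.42 under most settings and move with the floor, up to 2.32 and 3.97 when undetected values are kept at 0.1.

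Slide was not used to choose the hairpin, and miR-340-5p was compared between slides. The arm was detected on 1 of 6 arrays of the first slide and 3 of 6 of the second, with a log2 difference of 0.56, second minus first (exact permutation test, two-sided, p = 0.545). When the slide was permuted within each diet group, over 400 assignments, the exact p was 0.55. With 8 of 12 values at the floor the first of these permutation tests could not give an exact p below 0.0606, nor the one within diet below 0.05, so nothing is read from either. Without H3 the difference was 0.95 (exact permutation p = 0.182), without A89 0.35 (exact permutation p = 0.545), without C25 0.36 and without A37 0.39 (exact permutation p = 0.545 for both).

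The miRNAs whose detection was most like that of each arm were found among the other intermittent miRNAs. For miR-340-5p, miR-327, miR-350, miR-582 and miR-667 had the same flag on 11 of 12 arrays. Of these, miR-327, miR-582 and miR-667 were detected in H3, C25 and A89 and lacked A37, and miR-350 was detected in the same 4 rats as miR-340-5p and in H20. For miR-340-3p the highest agreement was 10 of 12, with its own partner arm and with miR-542-5p, which was detected in C51, H1, C25 and A89. The rats C25 and A89 occur in each of these sets. Both were among the 3 rats with the most intermittent miRNAs detected, at 50 and 58 of the 83, and what part this has in the agreement was not tested.

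Markers of other tissues were compared with the arms. The 5 blood miRNAs listed (miR-451, miR-144, miR-223, miR-142-3p and miR-142-5p) were detected on all arrays, with scaled signals that summed to 1642 to 3933 per control rat and 1436 to 4211 per high fat rat, the highest in H3. The 3 vessel miRNAs (miR-126, miR-143 and miR-145) came to 10082 to 12000 and 4863 to 11719, the lowest in H3. The 6 muscle miRNAs came to 165393 to 289822 and 148139 to 261082. H3 was at 245085, though its miR-206 was below and its miR-1 above all other rats. Of the 4 liver and epithelial miRNAs (miR-122, miR-192, miR-200a and miR-200b), 1 was on all arrays, and they came to 30.7 to 489 and 31.2 to 351. The groups overlapped in each list. In a piece of muscle, fewer cells of a type and less RNA per cell cannot be told apart, and the part of these cell types in the miR-340 values was not tested.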

How the data were processed

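Soleus RNA of 12 rat offspring was labelled with Cy3, at an input of 100 ng, and hybridised to Agilent rat miRNA arrays, per the methods. The authors deposited, for each array, each miRNA's total signal intensity, the error of that signal and whether it was detected, all straight from the scanner software, with background subtracted and no normalization between arrays. The software's version and a genome build are not given in the sources used here. The series-wide table matched these intensity values, with 0 differences. The number of arrays limits the precision.

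The 22 control rows were left out. Scaling used the 75th percentile over the 162 always-detected miRNAs, lower values were raised to 5.17, and log2 was taken. High fat minus control was fitted with limma 3.58.1 in R 4.3.3 to the 193 miRNAs with 6 or more detections (Benjamini-Hochberg adjusted), and miR-340-5p was fitted alongside without entering the adjustment. The fit was tested on simulated data with normal spread and no floor, a setting unlike that of the miR-340 arms. Sequences came from RefSeq (GRCr8), with both arms matched by name, and the hairpin was folded with RNAfold 2.7.2. Exact permutation tests and correlations, with 100000 permutations over 10 or more arrays, used numpy 2.4.6 and scipy 1.17.1.

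The arms, the marker lists and the tests were chosen with earlier results of these data known. The named miRNAs were both arms, those with the most similar detection flags, those sharing a seed (none) and the markers. Likeness to miR-340-5p by correlation and its correlation with brightness had been planned, but its values form 2 sets, so flags were used, a choice made after the values were seen, as was the relation of the other intermittent miRNAs to brightness.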

Additional observations from a re-analysis of the deposited data

Results flagged for a closer look

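Rat A89 stood apart from the other 5 offspring of control dams in both arms, at a scaled signal of 19.4 for miR-340-5p and 9.63 for miR-340-3p, because the other 5 were undetected and set to the floor of 5.17. Of 8 groups of 6 rats examined (both arms, the brightness and the number of miRNAs detected, in each diet group) these 2 showed such a rat. Chance alone would do so in about 1 group in 20, but that rate does not hold here, since any group with 1 detected rat and the rest tied at the floor shows it, and both are the same rat. A89 also had the highest brightness of any control array, 1665 signal units, and the most miRNAs detected of all 12, 220. Its part in the detection of miR-340 was not tested.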

How the results depend on the processing

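Each arm's diet difference had 26 alternatives, 12 of which leave out 1 rat. Several others could not change the estimates and add nothing to the counts that follow. These were the detection filters, the blocks for slide and array row, the trend and robust fit and the series-wide values. For miR-340-5p all 26 were above 0 and 25 lay within 1 SD between rats (0.93 on the log2 scale) of the reported 0.64. The exception was 2.32, with undetected values kept at 0.1. That SD is larger than the difference itself. Values of 0.022 with the floor 4 times higher and 1.31 with the floor 4 times lower therefore also count as within it. Above the higher floor only H3 is left. No stability is read from this count. For miR-340-3p 23 of 26 lay within 1 SD (0.39) of 0.42. The others were 1.76 with the floor 4 times lower, 0 with the floor 4 times higher and 3.97 with undetected values kept at 0.1. The 0 was fixed in advance, since that floor lies above every detected miR-340-3p value. The 1.76 and 3.97 depend on the value given to undetected rats. Leaving out each rat gave 0.44 to 0.93 for miR-340-5p, the highest without A89, and 0.36 to 0.55 for miR-340-3p. Array weights gave 0.36 and 0.25. The log2 arm ratio difference, 0.22, was -1.65 with undetected values kept at 0.1 and ran from -0.026 without A37 to 0.47 without H1. In detection by diet miR-340-3p was 66.7 percentage points higher in the high fat group, 100 points on the first slide, 33.3 on the second and 63.3 to 83.3 without each rat in turn. Over 27 alternatives, limma, or the methods' test in 1 of them, called 0 miRNAs at an adjusted p under 0.05, against 2 at an unadjusted p under 0.05 as reported and up to 15, without H1. The scaling moves the median log2 difference of all tested miRNAs from -0.17 to 0.14 without scaling, where miR-340-5p was at 0.75 and miR-340-3p at 0.53. Leaving out H3 moves that median too, to -0.034. The slide difference of miR-340-5p had an exact permutation p of 0.182 to 0.55 in 17 alternatives. With all 12 arrays it could not go below 0.0606, or below 0.05 within diet. With 1 rat left out the smallest p possible was 0.0606 if that rat had miR-340-5p and 0.0152 if it did not. No stability is read from these p-values. The relation of miR-340-5p to brightness was not run under any alternative, since its values form 2 sets. miR-340-3p was detected at little over 3.0 times its error, which limits its values.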
